A study of Homo sapiens with 8 samples.

Results

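Transcripts of 10 genes of the Notch pathway, 3 receptors (NOTCH1, NOTCH2, NOTCH3), 3 ligands (JAG1, JAG2, DLL1), the DNA-binding protein RBPJ and 3 transcription factors that act downstream (HES1, HEY1, ATOH1), were followed in Caco-2 cells with and without Siglec-XII. They were chosen by gene symbol among the 63816 gene entries of the expression table, and each of the 10 symbols had an entry. Caco-2 is an established line from a human colorectal adenocarcinoma that does not express Siglec-XII. The empty vector group (4 samples) was stably transfected with pcDNA3.1, and the Siglec-XII group (4 samples) with pcDNA3.1 carrying SIGLEC12, the gene for a human Siglec that has lost sialic acid binding. Both groups went through the same G418 selection, no age or time point applies, and bulk RNA was sequenced. The series text mentions stable clones and fewer cultures than samples, and the methods mention technical replicate libraries, so the 4 samples of a group may not be separate cultures. A p-value then measures only the spread between these samples. Each group also stems from its own transfection, and the effect of the transfection and that of Siglec-XII cannot be told apart.

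Notch receptors are single-pass proteins that are cut when a Jagged or Delta-like ligand on a neighbouring cell pulls on them, after which the intracellular part enters the nucleus, binds RBPJ and turns a repressor into an activator. Genes of the HES and HEY families, which encode repressors, are the classical targets. In the intestinal epithelium, HES1 represses ATOH1, and the balance of these factors divides progenitors between absorptive and secretory cells.

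Levels are given as log2(TPM + 1). TPM (transcripts per 1e+06 transcripts) is corrected for transcript length. Each sample's TPM is relative to the rest of its RNA, and read depth is unknown. Differences are Siglec-XII minus empty vector on this scale, fitted by limma over the 15590 entries with at least 1 TPM in at least 4 samples, and an entry was called at an adjusted p under 0.05. A fold taken on this scale understates the change of low genes. In bulk RNA, fewer cells with a transcript and less of it per cell cannot be told apart. The transfected gene SIGLEC12 stood at 0.06 to 0.17 in the empty vector samples and at 10.6 to 10.8 with Siglec-XII, as the labels say. Between 15513 and 15934 entries per sample reached 1 TPM, and mitochondrially encoded transcripts made up 6.67% to 11.2% of the TPM. Of 13 genes typical of colon epithelium, 5 passed the filter (CDX1, CDX2, EPCAM, KRT8, KRT18), while KRT20 was listed at 0 in every sample, and CDH17 and HNF4A stayed at or below 0.42. Of 13 genes typical of trophoblast, 11 passed, GATA3 at 8.37 to 8.91 among them. With 8 of the colon genes below the filter, the cells are called here by their label only.

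None of the Notch genes was called. Of the 10 members, 9 passed the filter and 0 of those 9 had an adjusted p under 0.05, against 0.648% of all tested entries. The lowest adjusted p was 0.109, for NOTCH2. By limma, the test used across entries, 3 members, NOTCH2, JAG1 and NOTCH1, had an unadjusted p under 0.05, all higher with Siglec-XII, where 13.9% of all tested entries did so in that direction. In these 3 genes every Siglec-XII sample was above every empty vector sample, as in 9.17% of all tested entries. No member was separated the other way, against 1.68% of entries. The fitted differences were above 0 for 8 of the 9 and below 0 for RBPJ, and their median was 0.20, beside 0.07 over all tested entries. The 25th percentile of all tested entries was -0.03, so most entries were above 0 too. ATOH1 was not detectable above 0.04 in any sample.

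**Figure D1:**
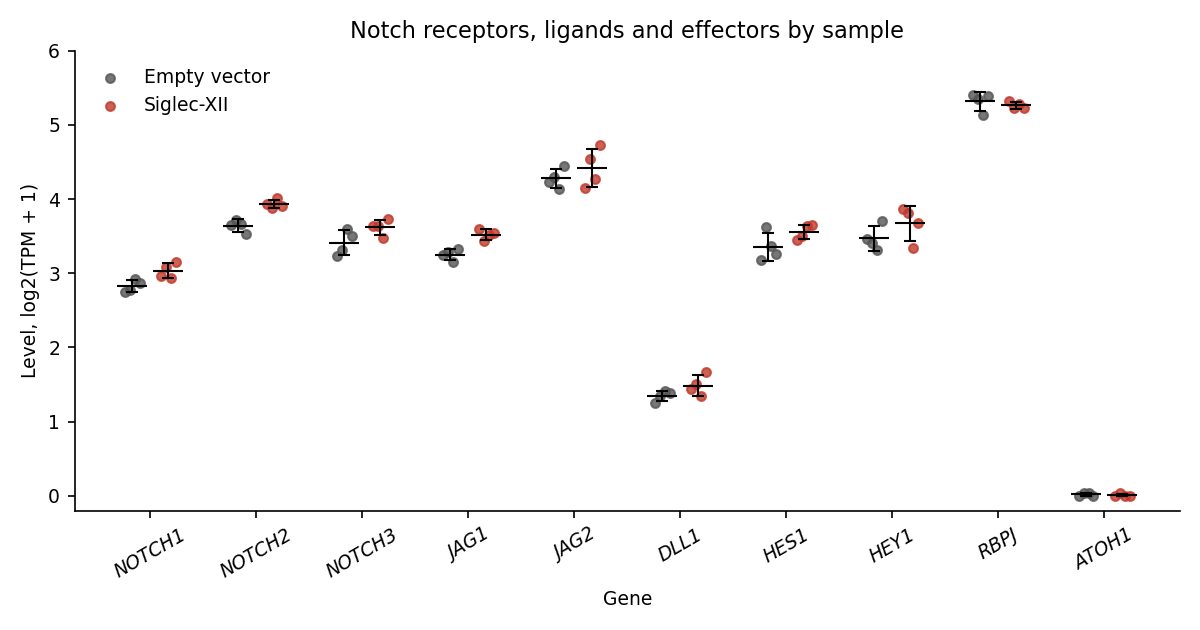
Level of each of the 10 genes as log2(TPM + 1), with 1 point per sample (grey, 4 empty vector; red, 4 Siglec-XII), a horizontal bar for the group mean and error bars for the SD. RBPJ and JAG2 are highest and ATOH1 lies at 0, and the points of the groups are separate for NOTCH1, NOTCH2 and JAG1.

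The promoters of 3 genes of the HES and HEY families are shown because they hold the core that RBPJ recognises, TGGGAA. Each run is the 250 bases before the transcription start in RefSeq, build GRCh38.p14, which is not the build of the expression table (hg19), on the gene's strand, with every match to TGGGAA or its reverse complement TTCCCA in capitals.
HES1, chr3:194135898-194136147, plus strand: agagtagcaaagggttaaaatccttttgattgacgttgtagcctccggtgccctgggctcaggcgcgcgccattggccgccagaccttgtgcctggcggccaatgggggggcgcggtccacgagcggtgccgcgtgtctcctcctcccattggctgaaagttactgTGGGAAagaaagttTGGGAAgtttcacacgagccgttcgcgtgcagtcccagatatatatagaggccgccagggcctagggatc
HES4, chr1:1000098-1000347, minus strand: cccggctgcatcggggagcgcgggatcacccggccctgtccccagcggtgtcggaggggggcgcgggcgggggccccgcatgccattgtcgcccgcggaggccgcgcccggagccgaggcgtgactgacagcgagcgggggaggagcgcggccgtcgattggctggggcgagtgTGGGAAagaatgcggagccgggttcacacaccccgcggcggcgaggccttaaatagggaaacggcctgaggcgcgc
HEYL, chr1:39639644-39639893, minus strand: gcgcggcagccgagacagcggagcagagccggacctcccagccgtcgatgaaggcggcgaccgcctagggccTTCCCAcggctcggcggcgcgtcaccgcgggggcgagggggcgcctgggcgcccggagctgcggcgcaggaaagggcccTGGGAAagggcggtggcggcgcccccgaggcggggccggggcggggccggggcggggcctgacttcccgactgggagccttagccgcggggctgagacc

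HES1 had 2 matches, starting 84 and 70 bases before the transcription start. HES4 had 1 match at 76 bases and HEYL had 2, at 178 and 99 bases. Of all 35116 promoter windows of 250 bases, 20.8% held at least 1 match and 2.90% at least 2, with both strands searched, so a single match is common. Among the members, 8 had a window in the table and 2 held a match, HES1 and RBPJ, the latter with 2 matches in 1 of its alternative windows. The windows of NOTCH1, NOTCH2, NOTCH3, JAG1, JAG2 and ATOH1 held none. Of 12 windows of other HES, HEY and target genes, 5 held a match, those of HES3, HES4, HES5, HEY2 and HEYL, and HES3, HES5 and HEY2 did not pass the expression filter. A match describes the letters only. HES1, HES4 and HEYL, which share these letters, had differences of 0.21, -0.04 and 0.23 (the carriers outside the members are named for their promoters, after their values were seen), and none was called.

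NOTCH2 was the receptor with the highest level and the member with the greatest difference between groups. NOTCH2 (ENSG00000134250, chromosome 1, 120454176 to 120643366 on the minus strand of GRCh37) read 3.65, 3.72, 3.67 and 3.53 in empty vector samples 1 to 4 and 3.93, 3.88, 4.02 and 3.90 in Siglec-XII samples 1 to 4. The lowest Siglec-XII sample lay above the highest empty vector sample. The means were 3.64 ± 0.08 and 3.93 ± 0.06 (SD, n = 4), or 11.5 ± 0.704 and 14.3 ± 0.642 TPM, and the difference was 0.29 (SE 0.07, 95% interval 0.13 to 0.45), a 1.22-fold higher level with a limma adjusted p of 0.109. The two-sided exact permutation test of the single gene gave p = 0.0286, the smallest that 70 labellings allow, unadjusted for the 10 members.

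NOTCH1, the receptor first linked to leukemia, was the lowest of the 3 receptors. NOTCH1 (ENSG00000148400, chromosome 9, 139388885 to 139440500, minus strand) read 2.75, 2.78, 2.92 and 2.87 in empty vector samples and 2.96, 3.08, 2.94 and 3.15 with Siglec-XII. The groups did not overlap, but empty vector sample 3 and Siglec-XII sample 3 nearly met. The means were 2.83 ± 0.08 and 3.03 ± 0.10 (SD, n = 4), a difference of 0.20 (SE 0.09, 95% interval 0.01 to 0.40; limma adjusted p = 0.289; exact permutation p = 0.0286).

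NOTCH3 (ENSG00000074181, chromosome 19, 15269849 to 15311806, minus strand), a receptor best known from vascular smooth muscle, read 3.23, 3.31, 3.60 and 3.50 in empty vector samples and 3.64, 3.63, 3.48 and 3.73 with Siglec-XII. Siglec-XII sample 3 lay among the empty vector samples, and the other 3 lay above all of them. The difference was 0.21 (SE 0.10, 95% interval -0.01 to 0.43; limma adjusted p = 0.329; exact permutation p = 0.0857).

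Summed over the 3 receptors, the TPM was 25.7, 27.0, 29.4 and 27.1 in the empty vector samples and 32.5, 32.6, 32.0 and 34.1 with Siglec-XII. All 4 Siglec-XII samples were above all 4 empty vector samples. The means were 27.3 ± 1.56 and 32.8 ± 0.875 TPM (SD, n = 4), a log2 difference of 0.27 (exact permutation p = 0.0286, or 0.0857 adjusted over the 3 sums and ratios compared). The makeup of the receptor pool was nearly even between groups. NOTCH2 gave 42.2% ± 3.36 of it in empty vector samples and 43.6% ± 2.82 with Siglec-XII, NOTCH3 gave 35.4% ± 2.90 and 34.5% ± 1.88, and NOTCH1 gave 22.4% ± 0.594 and 21.9% ± 1.26 (SD, n = 4).

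Among the ligands, JAG1 was the one whose groups did not overlap. JAG1 (ENSG00000101384, chromosome 20, 10618332 to 10654647, minus strand) encodes Jagged1, a ligand mutated in Alagille syndrome. It read 3.24, 3.29, 3.15 and 3.33 in empty vector samples and 3.60, 3.43, 3.51 and 3.54 with Siglec-XII. The means were 3.25 ± 0.08 and 3.52 ± 0.07 (SD, n = 4), or 8.55 ± 0.523 and 10.5 ± 0.556 TPM. The difference was 0.27 (SE 0.08, 95% interval 0.10 to 0.44), 1.21-fold, with a limma adjusted p of 0.144 and an exact permutation p of 0.0286.

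JAG2 (ENSG00000184916, chromosome 14, 105607319 to 105635161, minus strand), the second Jagged ligand, was the most abundant ligand transcript. It read 4.23, 4.30, 4.14 and 4.44 in empty vector samples and 4.16, 4.54, 4.27 and 4.72 with Siglec-XII. Siglec-XII samples 1 and 3 lay inside the range of the empty vector samples and samples 2 and 4 above it, and the SD was 0.13 and 0.26. The difference was 0.14 (SE 0.13, 95% interval -0.14 to 0.43; limma adjusted p = 0.603; exact permutation p = 0.371). The entry ENSG00000257622, a long noncoding RNA on the same strand that overlaps JAG2, read 3.05, 2.89, 3.31 and 1.41 in empty vector samples and 3.26, 1.27, 1.08 and 0.00 with Siglec-XII. The 3 highest JAG2 values, in empty vector sample 4 and Siglec-XII samples 2 and 4, were in samples where this entry was at or below 1.41. In Siglec-XII sample 3 the entry was also low, at 1.08, but JAG2 was at 4.27, below empty vector sample 2. The part of this entry in the JAG2 values was not tested.

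DLL1, a Delta-like ligand, was the least abundant ligand. Its entry (ENSG00000198719, chromosome 6, 170591294 to 170615653, minus strand) read 1.25, 1.34, 1.41 and 1.38 in empty vector samples and 1.43, 1.51, 1.34 and 1.67 with Siglec-XII. Siglec-XII sample 3 lay within the range of the empty vector samples and sample 4 was the highest. The difference was 0.14 (SE 0.12, 95% interval -0.13 to 0.42; limma adjusted p = 0.600; exact permutation p = 0.114). A second DLL1 entry, ENSG00000275555, held the same value in every sample, so the level of the gene may be divided between both. Summed over both entries, DLL1 was at 3.09 ± 0.249 TPM in empty vector samples and 3.63 ± 0.542 TPM with Siglec-XII (SD, n = 4; exact permutation p = 0.114).

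The summed ligand TPM, with 1 entry for DLL1, ran from 26.2 to 31.4 in empty vector samples and from 29.6 to 38.3 with Siglec-XII. The groups overlapped, with means of 28.6 ± 2.24 and 33.0 ± 3.98 TPM (SD, n = 4; log2 difference 0.21; exact permutation p = 0.114, adjusted 0.171). JAG2 gave 64.6% ± 0.990 and 62.3% ± 4.61 of the ligand TPM, JAG1 gave 29.95% ± 0.741 and 32.2% ± 4.61, and DLL1 gave 5.43% ± 0.618 and 5.48% ± 0.302 (SD, n = 4). Ligand and receptor transcripts were present at about the same summed level, with a ratio of 1.05 ± 0.114 in empty vector samples and 1.005 ± 0.0962 with Siglec-XII (SD, n = 4; exact permutation p = 0.571).

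**Figure D2:**
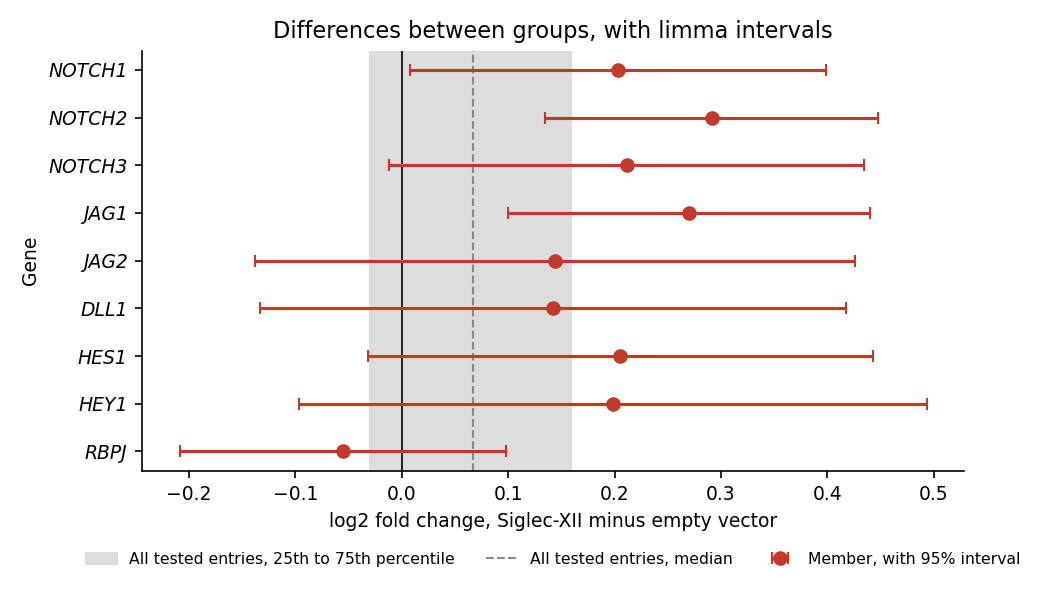
Fitted difference of each tested gene (points) with its 95% limma interval (bars), as log2 fold change of Siglec-XII minus empty vector. The grey band runs from -0.03 to 0.16, the 25th to 75th percentile of all tested entries, and the dashed line is their median of 0.07. Only RBPJ lies below 0, and the intervals of NOTCH2, JAG1 and NOTCH1 do not reach 0.

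RBPJ, the DNA-binding partner of the cleaved receptors, was the most abundant member. RBPJ (ENSG00000168214, chromosome 4, 26165077 to 26436753, plus strand) read 5.41, 5.35, 5.13 and 5.40 in empty vector samples and 5.33, 5.23, 5.28 and 5.23 with Siglec-XII. All Siglec-XII samples lay inside the range of the empty vector samples. The difference was -0.06 (SE 0.07, 95% interval -0.21 to 0.10; limma adjusted p = 0.727; exact permutation p = 0.457). The transcript that the table names for RBPJ is only 609 bases long, which bears on its TPM.

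HES1, the repressor that is the best-known Notch target in the intestine, had overlapping groups. HES1 (ENSG00000114315, chromosome 3, 193853937 to 193856521 in GRCh37, plus strand) read 3.18, 3.62, 3.37 and 3.26 in empty vector samples and 3.46, 3.51, 3.63 and 3.64 with Siglec-XII. Empty vector sample 2 stood among the Siglec-XII samples and the other 3 were below all of them. The difference was 0.21 (SE 0.11, 95% interval -0.03 to 0.44; limma adjusted p = 0.364; exact permutation p = 0.114). Without empty vector sample 2 it was 0.29, with no overlap and an adjusted p of 0.134. With any other sample left out it was 0.15 to 0.24, with a limma adjusted p of 0.388 to 0.584.

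HEY1 (ENSG00000164683), a HES-related repressor, read 3.46, 3.41, 3.32 and 3.71 in empty vector samples and 3.87, 3.81, 3.34 and 3.67 with Siglec-XII. Siglec-XII samples 1 and 2 were above all empty vector samples, and samples 3 and 4 were not. The difference was 0.20 (SE 0.13, 95% interval -0.10 to 0.49; limma adjusted p = 0.477; exact permutation p = 0.257).

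ATOH1 (ENSG00000172238, chromosome 4, 94749904 to 94752115, plus strand), the factor that commits intestinal cells to the secretory lineage, was listed at 0 in empty vector samples 1 and 4 and in Siglec-XII samples 1, 3 and 4. It read 0.04 and 0.04 in empty vector samples 2 and 3 and 0.03 in Siglec-XII sample 2. Its exact permutation p was 0.429. With depth unknown, these values set no limit on a lower expression.

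TPM allows the levels of different genes to be compared within a sample. Averaged over all 8 samples, the order of log2(TPM + 1) was RBPJ (5.29), JAG2 (4.35), NOTCH2 (3.79), HEY1 (3.57), NOTCH3 (3.52), HES1 (3.46), JAG1 (3.39), NOTCH1 (2.93), DLL1 (1.42) and ATOH1 (0.01). Of the 9 neighbouring pairs, 5 differed beyond their spread over samples, by a two-sided exact sign-flip permutation test with an adjusted p of 0.0141 each (RBPJ over JAG2, JAG2 over NOTCH2, JAG1 over NOTCH1, NOTCH1 over DLL1, DLL1 over ATOH1), the higher gene leading in 8 of 8 samples. The pairs from NOTCH2 down to JAG1 were not resolved. NOTCH2 exceeded HEY1 by 0.21 in 7 of 8 samples (adjusted exact p = 0.0586), and the steps from HEY1 to NOTCH3, NOTCH3 to HES1 and HES1 to JAG1 were 0.06, 0.06 and 0.07, with adjusted exact p of 0.414, 0.414 and 0.311.

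Gene length moved with the differences. Over all tested entries with a known transcript length, the median log2 fold change was 0.04 under 1000 bases, 0.05 from 1000 to 2000, 0.07 from 2000 to 4000, 0.10 from 4000 to 8000 and 0.12 at 8000 bases or more. The receptors and Jagged ligands have long transcripts, 11425 bases for NOTCH2, 8680 for NOTCH3, 5940 for JAG1 and 5773 for JAG2. With the trend on length removed, and the longest transcript taken for genes whose named one has no length, the median of the 9 members was 0.10 and that of all entries 0.00. NOTCH2 was then at 0.17 and JAG1 at 0.17, with no overlap between groups, and NOTCH1 was at 0.09 with overlapping groups. The summed receptors were then at 0.14 (exact permutation p = 0.0857).

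**Figure D3:**
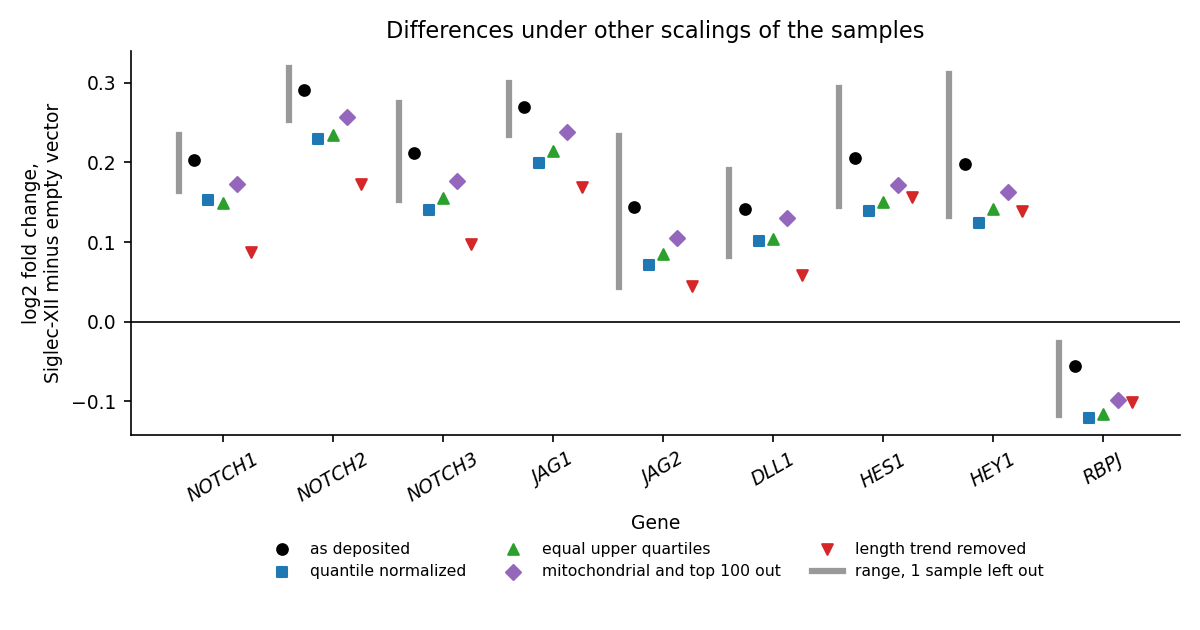
Log2 fold change, Siglec-XII minus empty vector, of the 9 tested genes as deposited (black), under quantile normalization, equal upper quartiles, removal of mitochondrially encoded and the 100 most abundant entries, and removal of the length trend with the longest transcript where needed. The grey bar is the range with 1 sample left out. All points of 8 genes are above 0 and all of RBPJ below 0, and the values with the length trend removed are below those of the other scalings for the receptors and ligands.

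A choice of scaling also moved the level that all entries share, from a median of 0.07 as deposited to 0.01 after quantile normalization, where the members' median was 0.14. NOTCH2 and JAG1 were separated under all 18 refits, with differences of 0.17 to 0.32 and 0.17 to 0.30. NOTCH1 was separated in 13 of 17 refits, with 0.09 to 0.23. Those 13 (pseudocount, filters, block, eBayes without trend, 1 sample left out) cannot undo a separation of the full data, and this holds for NOTCH2 and JAG1 too. Only the other scalings and the removal of the length trend can, and NOTCH1 overlapped in each of these that gave it a value. Under them 4.01% to 5.78% of all tested entries were separated upward. The lowest adjusted p of any member under any refit was 0.0835, for NOTCH2 without empty vector sample 2.

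Near-identical copies can take reads from NOTCH2 and RBPJ. Of 13 such symbols, 6 had an entry and 1 passed the filter. That was NOTCH2NLA, a partial copy of NOTCH2, which read between 1.90 and 2.31. Its groups overlapped, with a difference of -0.05 (limma adjusted p = 0.881). How reads were divided between the copies was not tested. The RBPJL and RBPJ pseudogene entries stayed at or below 0.19. FAM120B, which overlaps DLL1 on the opposite strand, read between 2.60 and 2.83.

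The rest of the pathway was read from 9 lists with 99 genes, of which 69 passed the filter. Of these, 54 were higher and 15 lower with Siglec-XII, with a median difference of 0.11. Most of all tested entries were higher too (median 0.07, 25th percentile -0.03), and the counts of higher genes per list below share that shift. Of the 69, 1 was called, where 0.648% of all tested entries were. That count was 0 under each other scaling tried and with the replicate number as a block. In 12 of the 69 (17.4%) every Siglec-XII sample was above every empty vector sample, against 9.17% of all tested entries, and 1 was separated the other way, TLE4, a corepressor, with a difference of -0.08 (limma adjusted p = 0.4398). An unadjusted p under 0.05 was found for 18 of the 69 genes, all higher, where 13.9% of all tested entries had one in that direction.

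Corepressors hold RBPJ targets silent in the absence of cleaved Notch. Among the 13 genes of this list the median was 0.12, and 11 were higher and 2 lower. HDAC1 and HDAC2, histone deacetylases and the most abundant of the list, had differences of 0.12 (limma adjusted p = 0.294) and 0.08 (0.338), and KDM5A, a histone demethylase, 0.26 (0.269).

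Of the 9 receptor-processing genes, which cut and mature the receptor, all passed the filter, 8 were higher, 0 were called, and the median was 0.11. ADAM10, the protease that makes the ligand-induced cut, read 6.73 to 6.82 and 6.84 to 6.93, a difference of 0.11 (limma adjusted p = 0.222) that was -0.0045 with the length trend removed. PSENEN, a subunit of gamma-secretase, had a difference of 0.19 with overlapping groups (limma adjusted p = 0.419). Of 9 glycosylation genes, which add sugars to the receptor's extracellular repeats, 8 passed, 6 were higher, 0 were separated, and the median was 0.11. POFUT1, the fucosyltransferase of Notch, had a difference of 0.07 and GXYLT1, a xylosyltransferase, one of 0.15, with limma adjusted p of 0.600 and 0.378.

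In the trafficking list, which holds ubiquitin ligases and adaptors that act on ligands or receptors, 14 of 16 genes passed, 10 were higher, 0 were called and the median was 0.11. MIB1, the ligase needed for ligand activity, read 3.11 to 3.19 in empty vector samples and 3.32 to 3.77 with Siglec-XII, a difference of 0.32 (limma adjusted p = 0.194), with Siglec-XII sample 4 the highest. DTX4, a Deltex ligase, had a difference of 0.22 (limma adjusted p = 0.126) and ITCH, a ligase that acts on Notch, one of 0.10 (0.513). EPN1, an endocytic adaptor, had 0.19 (0.200). The groups did not overlap for MIB1, DTX4 and EPN1. In the nuclear complex list all 10 genes passed, 8 were higher, 0 were called and the median was 0.09. FBXW7, which marks the cleaved receptor for degradation, read 4.60 to 4.72 and 4.75 to 5.19, a difference of 0.34 (limma adjusted p = 0.136). CREBBP, an acetyltransferase of the activating complex, had a difference of 0.24 (0.226), and CCNC and SNW1, the most abundant of the list, had -0.05 and 0.06.

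Of the 14 other HES, HEY and target genes, 9 passed the filter, 8 were higher and 0 were called, with a median of 0.18. BHLHE40, a basic helix-loop-helix repressor, had the greatest difference of the list, 0.47, with 2.90 to 3.75 against 3.41 to 3.85 and a limma adjusted p of 0.254. CCND1, the gene for cyclin D1, had 0.36 (0.172), which was 0.47 with an adjusted p of 0.0413 without empty vector sample 2. With any other sample left out, the limma adjusted p of CCND1 was 0.220 to 0.312. MYC, the transcription factor that is a direct Notch target in leukemia, read 7.11 to 7.25 and 7.29 to 7.37, a difference of 0.18 with no overlap (limma adjusted p = 0.115). HEYL and NRARP, a feedback inhibitor, were also separated, with 0.23 and 0.23 (limma adjusted p of 0.238 and 0.189; NRARP is named after its values were seen). HES4 read 3.56 to 3.88 in empty vector samples and 3.61 to 3.86 with Siglec-XII, and HES5 was listed at 0 in every sample.

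The lineage genes were mostly below the filter. Of 12 secretory genes 10 were not tested, among them GFI1, SPDEF, AGR2, CHGA, LYZ, DCLK1 and NEUROD1, none of which was above 0.9998, while MUC2 stayed at or below 0.06 and TFF3 and NEUROG3 were listed at 0 throughout. KLF4, a factor of goblet cell differentiation, was the exception with a level of 3.42 to 3.81 in empty vector samples and 3.94 to 4.25 with Siglec-XII, a difference of 0.52 (SE 0.11; limma adjusted p = 0.0797) and no overlap. Without empty vector sample 2 its limma adjusted p was 0.0285, and with any other sample left out it was 0.132 to 0.189. POU2F3, a tuft cell factor, had a difference of -0.03. Of 10 stem and absorptive genes 8 were not tested, OLFM4 and LGR5 at or below 0.14 among them, and ASCL2 and SOX9, both stem cell factors, had differences of 0.05 and -0.05. Of the 6 other receptors and ligands, 2 passed the filter, DLK2 (0.00) and DLL3 (0.19), with overlapping groups, and NOTCH4, DLL4, DLK1 and DNER stayed at or below 0.46. NOTCH4 had 7 entries, of which only the highest was read, so its level may be divided between them.

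**Figure D4:**
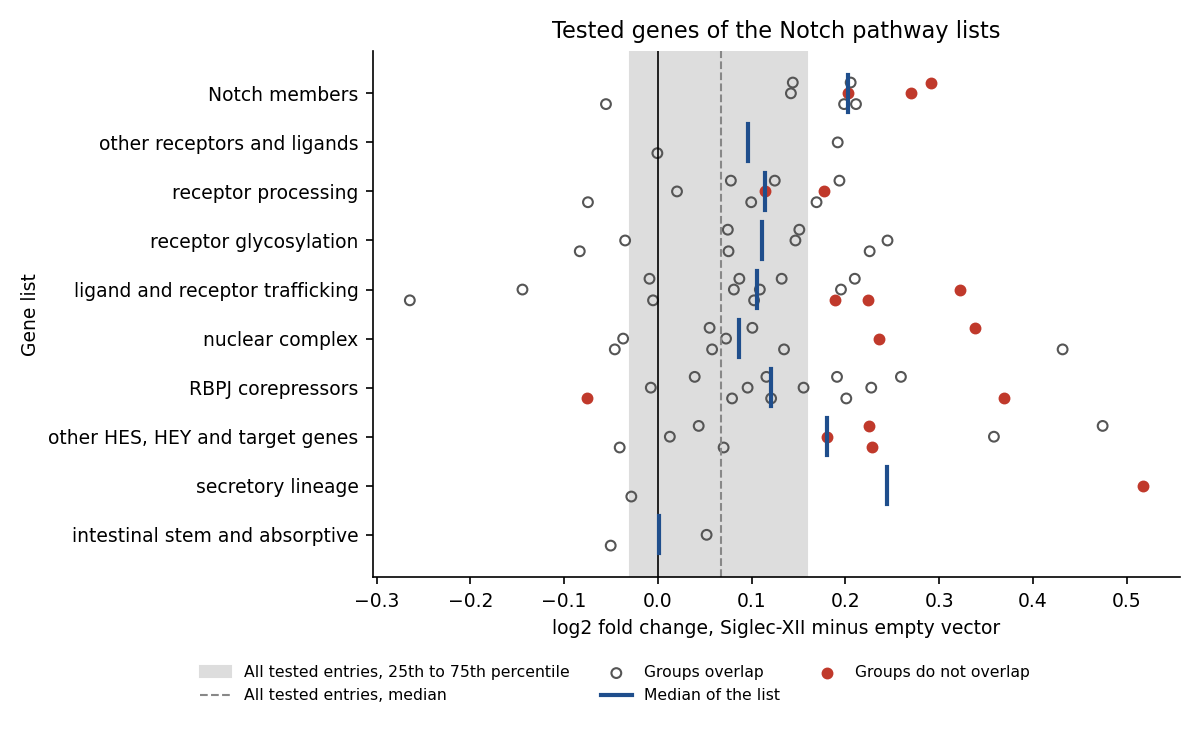
Log2 fold change, Siglec-XII minus empty vector, of every tested gene of the Notch lists (1 point per gene; filled red where the groups do not overlap) with each list's median as a blue line. The grey band and dashed line are the 25th to 75th percentile and the median of all tested entries. The members' median is 0.20 as deposited (0.10 with the length trend removed), the band describes single entries and not medians, and KLF4 at 0.52 is the rightmost point.

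The sum of the colon epithelium list, mostly KRT8 and KRT18, did not overlap between the groups, and that of the trophoblast list did. Of the 5 colon genes tested, 0 were called and 1 had every Siglec-XII sample above every empty vector sample. Of the 11 trophoblast genes tested, 0 were called and 1 was separated in that way, as were 9.17% of all tested entries. The summed TPM of the 13 colon epithelium genes ran from 7160 to 8137 in empty vector samples and from 8641 to 8957 with Siglec-XII. Its exact permutation p was 0.0286, the smallest that 70 labellings allow, unadjusted. With 8 of these 13 genes below the filter, the sum does not describe the list as a whole. The sum of the 13 trophoblast genes ran from 1197 to 1367 and from 1281 to 1346 (exact permutation p = 0.857). Neither sum was computed under the other scalings. Their part in the differences of the Notch genes was not tested.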

How the data were processed

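RNA from 4 empty vector and 4 Siglec-XII samples of Caco-2 was sequenced as 100 bp paired reads. Per the labels the libraries came from a stranded total RNA kit, whereas the methods name a stranded mRNA kit. The authors quantified reads with kallisto (0.45.0 in the submitters' processing notes) against hg19 and deposited log2(TPM + 1) for 63816 gene entries. Each column sums to 1e+06 TPM, so depth is unknown, counting error could not be given and a count test, which the methods name, did not apply. Unused value columns numbered 0.

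Entries with at least 1 TPM in at least 4 samples were tested by limma 3.58.1 under R 4.3.3 (lmFit, eBayes with trend, Benjamini-Hochberg over all 15590), tested beforehand on simulated data. Single values and sums were compared by two-sided exact permutation over 70 labellings, and neighbouring levels by sign flips. With DLL1 on 2 entries of equal mean, the first was used. A list gene with more than 1 entry was read from the entry with the highest mean, and the others were not added. The members and lists were chosen with earlier results of these data known. The text names all members, SIGLEC12, markers, look-alike copies, secretory genes and, per list, genes called, the 2 most abundant and the 2 greatest rises and falls with an unadjusted p under 0.05, and other genes where it says so. A few genes that this rule covers are not reported here. Same-numbered samples were not paired (correlations of deviations -0.07 to 0.06). Transcript lengths came from GENCODE lifted to GRCh37, for 55641 entries. Promoters came from RefSeq on GRCh38.p14. Alternatives were a pseudocount of 0.1, no filter, a mean of at least 5 TPM, other scalings, removal of the length trend (lowess, span 0.3), the replicate block, eBayes without trend and each sample left out. Summing DLL1 and the longest transcript were added after seeing the data. Python 3.11.15, scipy 1.17.1 and matplotlib 3.10.9 were used.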

Additional observations from a re-analysis of the deposited data

Results flagged for a closer look

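Of 76 groups of 4 samples checked, 2 held a sample far from the other 3, where chance gives about 1 in 20. EPN1 read 6.85 in empty vector replicate 1 against 7.02 to 7.04 in the other empty vector samples. MYC read 7.29 in Siglec-XII replicate 3 against 7.36 to 7.37 in the other Siglec-XII samples.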

How the results depend on the processing

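The count of members called was 0 under all 19 alternatives, with a lowest adjusted limma p per alternative of 0.0835 to 0.338. The count of pathway genes called, 1 as reported, was 0 with no filter, with 0.1 as the pseudocount, with quantile normalization, with equal upper quartiles, without the mitochondrially encoded and the 100 most abundant entries, with the length trend removed by either choice of transcript, with eBayes without trend and with the replicate number as a block. Leaving out 1 sample gave counts of 0 to 3, the 3 without empty vector replicate 2, CCND1 and KLF4 among them. Without that sample 159 entries of all were called, against 101, and 16.9% were separated upward, against 9.17%. Under the block, 69 entries of all were called against 101, the lowest adjusted p of a member was 0.215, and 2 of 4 samples correlated best with their own number. Among the members and pathway genes, the block changed no call but that of the 1 pathway gene. The members' median log2 fold change moved from 0.20 to 0.10 with the length trend removed using the longest transcript, where the summed receptors were at 0.14 (exact permutation p = 0.0857). ADAM10 was at -0.0045 and -0.0034 under the removals of the length trend. No value of a member changed sign. With 1 sample left out, the permutation tests cannot pass 0.05 and were not read. Depth is unknown, so low levels such as those of ATOH1 and DLL1 have an error that could not be set, and the cause of the shift with length was not tested.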
